A study of Mus musculus with 4 samples.

Results

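Primitive endoderm is the extraembryonic layer that lines the inner cell mass of the blastocyst. The 7 genes described here are *Gata4*, *Gata6*, *Sox7*, *Pdgfra*, *Dab2*, *Hnf4a* and *Foxq1*. They were chosen by their symbols as regulators of this layer, out of 24347 gene rows, and not by a threshold on their values. Earlier results of these data were known when these genes and the gene lists below were chosen. Of the 7, 5 encode transcription factors (*Gata4*, *Gata6*, *Sox7*, *Hnf4a* and *Foxq1*), *Pdgfra* encodes a receptor, and *Dab2* encodes an endocytic adaptor protein, although the rule names transcription factors and receptors. The RNA-seq values were measured at day 3 in embryoid bodies (EBs), the floating clusters that mouse embryonic stem cells (mESCs), here of strain 129/Ola, form as they differentiate once the self-renewal factor LIF is withdrawn. The 2 groups are WT EBs (WT 1 and WT 2) and NEMEP promoter-KO EBs (promoter KO 1 and promoter KO 2), in which CRISPR/Cas9 with paired guides removed the promoter of *Gm11549*, the gene of the micropeptide NEMEP. No other agent was added to either group. The mutant mESCs were grown from single sorted cells, and the sources used here do not say whether the 2 promoter KO samples come from the same clone, so a property of a clone and the effect of the deletion cannot be told apart.

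In the embryo, GATA6 and GATA4 are zinc finger factors that act early in the choice of primitive endoderm over epiblast, and FGF signaling drives that choice. SOX7, a factor of the SOXF group, follows. PDGFRA, the receptor for PDGF ligands, is a surface marker of the layer. The layer then forms visceral endoderm, which takes up nutrients through the receptors cubilin, amnionless and megalin with DAB2 as their adaptor and secretes serum proteins under HNF4A, and parietal endoderm, which lays down basement membrane. None of the 7 is restricted to this lineage. Among them, GATA4, GATA6 and PDGFRA also mark early mesoderm and heart precursors, GATA6 marks definitive endoderm, and SOX7 marks early blood and endothelial precursors.

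The 7 genes did not move together. *Gata6* fell in promoter KO EBs, *Dab2* rose, *Sox7* rose as a gene that could be tested only if it was higher there, and the other 4 did not pass the test or were too low to be tested. On the FPKM scale (fragment numbers scaled by transcript length and by library size), *Gata6* was 3.71-fold lower in promoter KO than in WT, *Dab2* was 4.22-fold higher and *Sox7* was 6.91-fold higher. The visceral endoderm products set beside them rose in 7 cases and fell in 0 (limma, adjusted p under 0.05), and 2 of the 7 had the same limit as *Sox7*. No product of that list was called in the direction of *Gata6*.

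The test was limma on log2(FPKM + 1), over the 11941 genes that reached 1 FPKM in 2 or more of the 4 samples, with Benjamini-Hochberg adjustment across them. By this rule 1.89% of the tested genes were lower in promoter KO, 1.68% were higher, and 3.58% changed in either direction. At an unadjusted p under 0.05 in limma, 15.6% were lower and 15.0% were higher, which is the background for the unadjusted counts given below. Of the 7 regulators 6 passed the filter, and 1 of them was called lower and 2 higher. *Sox7* reached 1 FPKM only in the promoter KO samples, so it had to be higher there in order to be tested. The same holds for 166 of the 11941 tested genes, of which 35 were called higher, and 165 others reached 1 FPKM only in WT, of which 9 were called lower. Promoter KO and WT samples did not overlap in 6 of the 7 genes, a separation that 65.3% of all tested genes showed, so it does not set the 7 apart. For any gene the smallest exact permutation p that 2 against 2 samples allow is 0.333, and the adjusted p-values depend on how limma pools variance over genes. These p-values set each difference between the genotypes against the spread between these samples. The study treats the samples as biological replicates, and the labels only number them.

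The deletion was visible in its target. *Gm11549* was listed at 0.750 (WT 1) and 0.522 FPKM (WT 2), against 0 (promoter KO 1) and 0.0659 FPKM (promoter KO 2), and it was below the filter. The label of the cells, mesendoderm, was checked against *T*, *Eomes*, *Mixl1*, *Gsc*, *Foxa2*, *Lhx1* and *Mesp1*. Their summed level was 747 FPKM in WT 1 and 943 FPKM in WT 2, and in promoter KO 1 and promoter KO 2 it was 144 and 304 FPKM. All 7 were listed above 0 in every sample, and 4 of the 7 fell in promoter KO, with 0 higher (7 lower and 0 higher at an unadjusted p under 0.05).

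The promoters that could be read, apart from a second *Hnf4a* window, are shown here. Every member with a window is shown, whatever its values, and the GATA motif is marked because GATA factors are themselves members of the list. RefSeq promoter windows, 250 bases before to 50 bases after an annotated start site in GRCm38.p6, were found for 3 of the 7 genes by symbol, 5 windows in all, and *Gata4*, *Gata6*, *Sox7* and *Foxq1* had none. Capitals mark the GATA motif on either strand, taken as the word AGATAA or TGATAA or the form of either that ends in G.
Dab2 at chr15:6299539-6299838 (plus strand): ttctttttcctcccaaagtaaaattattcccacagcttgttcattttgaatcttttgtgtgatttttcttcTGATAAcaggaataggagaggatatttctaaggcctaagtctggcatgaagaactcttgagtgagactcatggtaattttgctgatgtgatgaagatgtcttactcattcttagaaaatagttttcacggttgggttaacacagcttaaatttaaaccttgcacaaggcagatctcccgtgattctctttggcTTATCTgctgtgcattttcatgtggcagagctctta
Dab2 at chr15:6386498-6386797 (plus strand): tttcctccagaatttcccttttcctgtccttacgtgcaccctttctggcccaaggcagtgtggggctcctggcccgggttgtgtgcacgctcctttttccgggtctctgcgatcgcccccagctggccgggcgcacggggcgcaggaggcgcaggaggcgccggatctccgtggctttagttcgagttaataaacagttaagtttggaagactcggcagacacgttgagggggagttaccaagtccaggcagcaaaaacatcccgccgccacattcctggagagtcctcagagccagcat
Hnf4a at chr2:163506607-163506906 (plus strand): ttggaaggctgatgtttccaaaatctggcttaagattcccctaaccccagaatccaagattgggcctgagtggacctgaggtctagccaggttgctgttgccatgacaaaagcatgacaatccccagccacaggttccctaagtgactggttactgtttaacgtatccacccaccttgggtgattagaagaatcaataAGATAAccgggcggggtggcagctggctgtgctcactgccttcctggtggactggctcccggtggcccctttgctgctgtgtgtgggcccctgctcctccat
Pdgfra at chr5:75152001-75152300 (plus strand): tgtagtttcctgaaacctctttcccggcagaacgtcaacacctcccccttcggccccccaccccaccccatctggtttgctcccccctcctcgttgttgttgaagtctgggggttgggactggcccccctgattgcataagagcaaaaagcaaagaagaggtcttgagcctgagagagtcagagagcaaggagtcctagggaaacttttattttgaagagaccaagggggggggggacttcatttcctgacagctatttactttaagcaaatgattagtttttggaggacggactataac

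The first *Dab2* window held 2 matches, TGATAA at position −179 from the start site and AGATAA on the opposite strand at position 15. The *Hnf4a* window shown held 1 match, AGATAA at position −52, while the second *Dab2* window, the second *Hnf4a* window (chr2:163546905-163547204) and the *Pdgfra* window held 0. Of the 5 windows 2 (40.0%) thus held a match. The share was 29.8% of 32851 windows of the same length over 27025 genes, with chromosome 18 left out. It was 4 of 22 windows (18.2%) over 18 of the visceral endoderm products. The words AACAAT (SOX) and TGTTTAC (FOX), searched on both strands, were in 0 of the 5 windows and in 10.7% and 3.65% of all windows. With none of these in the windows of the members, no overlap with the GATA words arose. These matches describe letters and not bound sites, and FPKM values per gene do not tell which start site was used.

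*Gata6* and *Gata4* are related zinc finger factors, and the difference between them was not tested. *Gata6* was at 12.8 (WT 1) and 21.7 FPKM (WT 2), against 4.13 (promoter KO 1) and 5.18 FPKM (promoter KO 2). Both WT samples lay above both promoter KO samples. The means were 17.3 ± 6.31 FPKM in WT and 4.66 ± 0.739 in promoter KO (SD, n = 2 each), and on log2(FPKM + 1) the log2 fold change was −1.65 (standard error 0.25, 95% confidence interval −2.26 to −1.04, adjusted p = 0.0389 in limma). *Gata6* had the highest WT mean of the 7 genes.

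*Gata4* was at 5.02 (WT 1) and 19.4 FPKM (WT 2), against 9.68 (promoter KO 1) and 13.8 FPKM (promoter KO 2). The WT samples lay on either side of both promoter KO samples, and WT 2 was 3.86-fold above WT 1. The log2 fold change of *Gata4* was 0.18 (standard error 0.54, 95% confidence interval −1.14 to 1.50, adjusted p = 0.842 in limma), an interval that takes in a log2 fold change of 1 in either direction. Its sign depended on the samples used. Without WT 1 it was −0.70 (adjusted p = 0.158 in limma), and without WT 2 it was 1.06 (adjusted p = 0.214).

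*Sox7* was at 0.289 (WT 1) and 0.221 FPKM (WT 2), against 1.87 (promoter KO 1) and 1.66 FPKM (promoter KO 2). At the estimated depths these WT values stand for about 22 and 15 fragments, and the promoter KO values for about 125 and 104. The replicates were close in both genotypes and the groups were far apart, in a gene that had to be higher in promoter KO to be tested. The log2 fold change was 1.14 (standard error 0.16, 95% confidence interval 0.76 to 1.52, adjusted p = 0.0371 in limma), and because the pseudocount of 1 exceeds the WT values, it was 2.40 with a pseudocount of 0.1.

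*Hnf4a*, a nuclear receptor that drives the secretory genes of visceral endoderm, was at 0.260 (WT 1) and 0.293 FPKM (WT 2), against 0.757 (promoter KO 1) and 1.24 FPKM (promoter KO 2). The promoter KO values were the higher ones without overlap, and the ratio of the means was 3.61, yet only promoter KO 2 reached 1 FPKM and the gene was below the filter. In the fit without a filter, over 18215 genes, its log2 fold change was 0.64 (95% confidence interval 0.26 to 1.01, adjusted p = 0.149 in limma). In that fit no gene passed, as the smallest adjusted p was 0.133.

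*Foxq1*, which encodes a forkhead factor, stood at 6.38 (WT 1) and 6.58 FPKM (WT 2), against 9.84 (promoter KO 1) and 12.8 FPKM (promoter KO 2). The groups did not overlap, and the mean was 1.74-fold higher in promoter KO. The log2 fold change of 0.71 (standard error 0.15, 95% confidence interval 0.33 to 1.08) did not pass the threshold, with an adjusted p of 0.0585 in limma.

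*Pdgfra*, the receptor of the list, had 2.19 (WT 1) and 6.78 FPKM (WT 2), against 1.07 (promoter KO 1) and 1.84 FPKM (promoter KO 2). WT 1 lay close above promoter KO 2, and the WT samples differed from each other 3.09-fold. The log2 fold change was −1.04 (standard error 0.42, 95% confidence interval −2.06 to −0.02, adjusted p = 0.159 in limma). It was −0.40 without WT 2 and −1.68 without WT 1.

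*Dab2*, the endocytic adaptor, had 4.97 (WT 1) and 2.48 FPKM (WT 2), against 13.0 (promoter KO 1) and 18.4 FPKM (promoter KO 2). The groups were well apart, with means of 3.72 ± 1.76 and 15.7 ± 3.83 FPKM (SD, n = 2 each). The log2 fold change was 1.86 (standard error 0.29, 95% confidence interval 1.15 to 2.56, adjusted p = 0.0408 in limma). In the order of mean levels *Dab2* was the fifth of the 7 in WT and the first in promoter KO, where *Gata4* (11.7 FPKM) and *Foxq1* (11.3 FPKM) were next. In promoter KO the sample values of *Gata4* overlapped those of both *Dab2* and *Foxq1*.

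**Figure D1:**
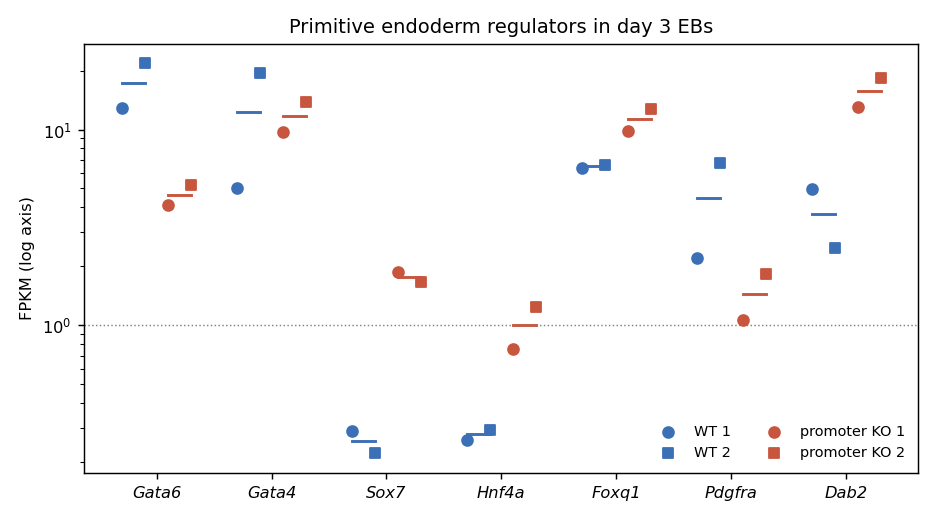
FPKM on a log axis of the 7 primitive endoderm regulators in each sample, with WT in blue and promoter KO in red, circles for replicate 1, squares for replicate 2, short bars for the mean of 2 samples and a dotted line at 1 FPKM. *Gata6* and *Pdgfra* have both WT samples on top, *Sox7*, *Hnf4a*, *Foxq1* and *Dab2* have both promoter KO samples on top, and the samples of *Gata4* overlap.

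The 3 calls depended on which samples were used. *Gata6* stayed past the threshold without WT 1 (log2 fold change −2.01, adjusted p = 0.0306 in limma) and not without WT 2 (−1.30, 0.142), promoter KO 1 (−1.52, 0.171) or promoter KO 2 (−1.79, 0.0549). *Dab2* passed without WT 1 (2.24, 0.0362) and not without WT 2 (1.47, 0.157), promoter KO 1 (2.09, 0.139) or promoter KO 2 (1.62, 0.0695). *Sox7* passed without promoter KO 2 (1.19, 0.0485) and not without WT 1 (1.18, 0.0725), WT 2 (1.10, 0.197) or promoter KO 1 (1.08, 0.142). The directions of *Gata6* and *Dab2* held in all 4 fits, in which a lone sample is assumed to vary like the other genotype, while that of *Sox7* was fixed by the filter. Without the intensity trend *Gata6* (−1.65, 0.0638) and *Dab2* (1.86, 0.0639) did not pass either, with fold changes as before. Without a filter they had an adjusted p of 0.144 and of 0.146 in limma. In that fit the direction of *Sox7* was not fixed, and its log2 fold change was 1.14 (adjusted p = 0.133 in limma).

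**Figure D2:**
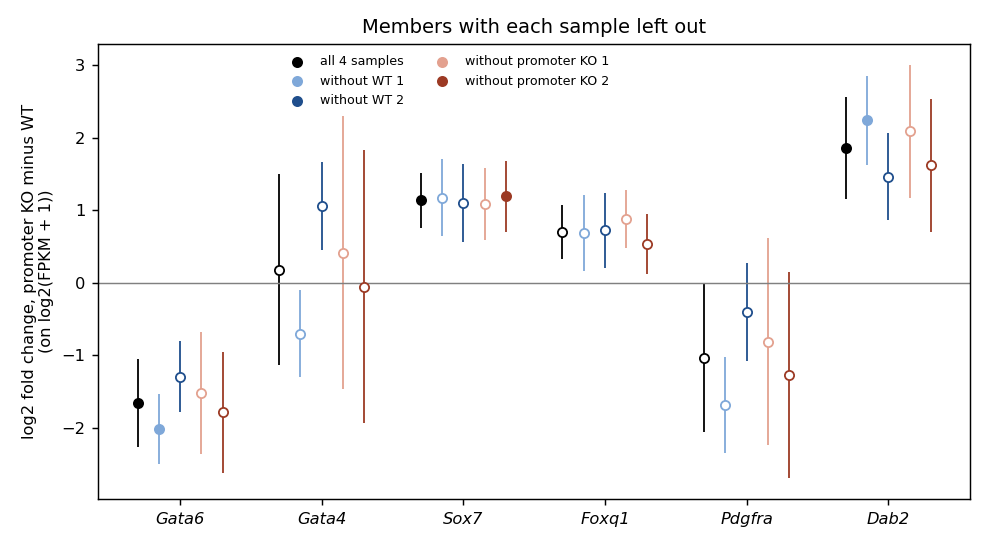
Log2 fold change (promoter KO minus WT, on log2(FPKM + 1)) of the 6 tested genes with all 4 samples and with each sample left out in turn, with 95% confidence intervals from limma and filled points for an adjusted p under 0.05. *Gata4* changes sign with the WT sample left out (−0.70 without WT 1, 1.06 without WT 2), whereas *Gata6*, *Foxq1*, *Pdgfra* and *Dab2* keep theirs and that of *Sox7* was fixed by the filter.

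Before the other cell types are compared, the difference between the WT samples needs to be given, since it touched *Gata4* and *Pdgfra*. WT 2 held more RNA of nascent mesoderm genes than WT 1. Of 22 genes of nascent and cardiac mesoderm, 20 were higher in WT 2, as were 49.1% of all tested genes. At 1 FPKM or more, 12 of the 22 were at least 2-fold higher, with untested genes such as *Msgn1* among them. Of all tested genes, 1.67% were at least 2-fold higher in WT 2. *Msgn1*, a factor of paraxial mesoderm, was at 0.846 FPKM in WT 1 and 22.6 in WT 2, *Hand1* at 1.27 and 11.3 FPKM, and *Kdr*, a receptor of early mesoderm, at 1.67 and 11.3 FPKM. These 3 were picked after their values were seen. *Gata4* (3.86-fold), *Pdgfra* (3.09-fold) and *Gata6* (1.70-fold) were higher in WT 2 as well, whereas *Dab2* was lower in WT 2 (2.48 against 4.97 FPKM) and the ratio of WT 2 to WT 1 was 1.03 for *Foxq1*, 1.13 for *Hnf4a* and 0.767 for *Sox7*. The part of mesoderm cells in the values of *Gata4*, *Gata6* and *Pdgfra* was not tested.

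**Figure D3:**
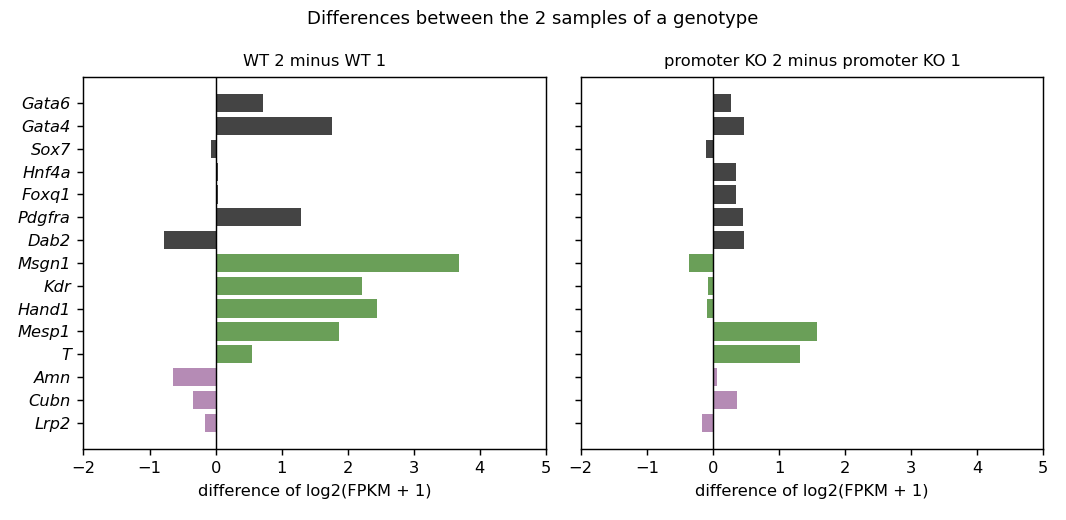
Difference of log2(FPKM + 1) between the 2 WT samples (left) and the 2 promoter KO samples (right) for the 7 regulators (dark), 5 mesoderm genes (green) and 3 visceral endoderm genes (purple), the last 2 sets picked after their values were seen. In WT the bars of *Gata4*, *Gata6* and *Pdgfra* point the same way as those of *Msgn1*, *Kdr*, *Hand1*, *Mesp1* and *T*, and that of *Dab2* points the other way.

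The mesoderm list, whose genes share *Gata4*, *Gata6* and *Pdgfra* as markers, had calls only toward lower values in promoter KO. Its summed level was 553 (WT 1) and 932 FPKM (WT 2), against 208 (promoter KO 1) and 262 FPKM (promoter KO 2), with *T* the gene of the highest mean over the 4 samples. Of 13 tested genes 3 fell (*Mesp1*, *Mixl1* and *Evx1*) and 0 rose, with 9 lower and 0 higher at an unadjusted p under 0.05 (3 of the 9 reached 1 FPKM only in WT and had to be lower to be tested), and 5 of the 22 genes were below 1 FPKM in every sample. Genes of definitive endoderm and anterior streak, which share *Gata6*, fell in 6 of 12 cases (*Cxcr4*, *Gsc*, *Lhx1*, *Cer1*, *Hhex* and *Dkk1*) and rose in 0, with 10 lower and 1 higher at an unadjusted p under 0.05. Their sums were 522 (WT 1) and 504 FPKM (WT 2), against 248 (promoter KO 1) and 314 FPKM (promoter KO 2), with *Eomes* at the highest mean over the 4 samples. *Gata6* thus had the direction of the calls in both lists. In bulk RNA from whole EBs, fewer cells of a type and less RNA per cell cannot be told apart.

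Among blood and endothelial genes, which share *Sox7*, the calls had the opposite direction to it. *Etv2*, the highest of the 14 in every sample and the master factor of these precursors, fell from 26.1 ± 5.19 to 6.57 ± 1.51 FPKM (SD, n = 2 each), and its log2 fold change was −1.84 (adjusted p = 0.0244 in limma). *Lmo2* (−1.16) and *Flt1* (−1.13) fell with it, 0 of the 7 tested genes rose (3 lower and 2 higher at an unadjusted p under 0.05), and 6 of the 14, *Tal1*, *Gata1*, *Runx1*, *Cdh5*, *Fli1* and *Emcn*, stayed below 1 FPKM in every sample, *Emcn* at 0. The summed level of the 14 was 43.0, 57.8, 26.7 and 22.6 FPKM in WT 1, WT 2, promoter KO 1 and promoter KO 2. Without *Etv2* it was 20.5, 28.0, 19.1 and 17.1 FPKM. In this list 4 genes had values on the side of *Sox7* without overlap, as 65.3% of all tested genes had in either direction, and without a call. They were *Pecam1* (2.03-fold higher in promoter KO), *Tek* (3.45-fold, tested only through promoter KO samples), *Cd34* (1.29-fold) and *Cdh5* (2.18-fold, not tested).

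Of 9 trophoblast genes 4 were tested, and 1, *Tfap2c*, a factor shared with germ cells and ectoderm, fell (log2 fold change −1.48, adjusted p = 0.0422 in limma), with 0 higher and, at an unadjusted p under 0.05, 2 lower and 1 higher. *Tpbpa* was at 0 and *Elf5*, *Plac1* and *Gcm1* stayed below 1 FPKM in every sample. *Cdx2*, also a gene of posterior streak and the highest of the list in the mean of the 4 samples through WT 2, was at 5.77 (WT 1) and 25.4 FPKM (WT 2), against 2.49 (promoter KO 1) and 5.51 FPKM (promoter KO 2). The sums of the list were 23.6, 51.5, 15.6 and 18.2 FPKM in that order of samples.

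Visceral endoderm products had calls only toward higher values in promoter KO. Of the 22 listed, 17 passed the filter, 7 rose and 0 fell, against 1.68% and 1.89% of all tested genes. At an unadjusted p under 0.05 in limma, 1 was lower and 11 were higher. The list was chosen with earlier results of these data known, so setting it against all tested genes is a description and not a test. Of the 7, *Cubn* and *Ihh* reached 1 FPKM only in promoter KO and had to be higher to be tested, and so did *Apob* among the 11. Over all 22, tested or not, 20 had a higher mean of log2(FPKM + 1) in promoter KO and the median difference was 0.62, against 0.00417 for all tested genes. The receptors that DAB2 serves were among the 7. *Amn*, which encodes amnionless, went from 2.33 (WT 1) and 1.14 FPKM (WT 2) to 14.4 (promoter KO 1) and 15.1 FPKM (promoter KO 2), and its log2 fold change was 2.56 (standard error 0.22, adjusted p = 0.0208 in limma), the largest of the list. *Cubn*, which encodes cubilin, went from 0.362 and 0.0686 to 3.09 and 4.29 FPKM in the same order of samples, and *Lrp2*, which encodes megalin, went from 3.78 and 3.29 to 13.0 and 11.4 FPKM. *Dab2*, *Amn* and *Lrp2* were all called higher, and the direction of *Cubn* was fixed by the filter.

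The other 4 that rose were *Spink1*, a secreted protease inhibitor (log2 fold change 1.84), *Ttr*, the transport protein transthyretin (1.70), *Rhox5*, a homeobox gene of extraembryonic cells (1.67), and *Ihh*, a hedgehog ligand (1.10). *Afp*, the classical product of this tissue, was at 1.25 (WT 1) and 0.0242 FPKM (WT 2), against 2.18 (promoter KO 1) and 3.97 FPKM (promoter KO 2) (adjusted p = 0.0899 in limma). *Rbp4*, which carries retinol, had the lowest log2 fold change of the list, −0.47 (adjusted p = 0.112). *Apoc2*, *Fga* and *Fgb* were below 1 FPKM in every sample. Other secreted products differed more within a genotype than between genotypes, such as *Apoa2* (WT values of 0.148 and 3.72 FPKM, promoter KO values of 0 and 3.83 FPKM), *Apoa1* (0.583 and 1.42 FPKM, then 0.243 and 3.30 FPKM) and *Apoc3* (0 and 1.18 FPKM, then 0 and 1.42 FPKM), with the second sample of each genotype the higher one. The summed level of the 22 was 680 (WT 1) and 666 FPKM (WT 2), against 977 (promoter KO 1) and 1065 FPKM (promoter KO 2), most of it *Apoe*, which many cells express (log2 fold change 0.47, adjusted p = 0.0509). Without *Apoe* the sums were 45.1, 48.7, 169 and 140 FPKM. Without WT 2 or without promoter KO 1 no gene of any kind passed (0 of the 22), although 10 and 13 of them were higher at an unadjusted p under 0.05 in limma.

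Products of parietal endoderm and basement membrane had calls in both directions. Of 13 tested genes 6 rose, *Srgn*, *Lama1*, *Col4a2*, *Col4a1*, *Sparc* and *Lamc1*, with log2 fold changes from 3.54 to 0.69 (1 lower and 9 higher with an unadjusted p under 0.05, of which *Plat* had to be higher to be tested), and 1 fell, *Fst* (−0.91), an activin inhibitor that the streak also expresses, with the highest mean of the list over the 4 samples but not in promoter KO alone. *Lama1*, a laminin chain of this membrane, went from 1.51 (WT 1) and 2.18 FPKM (WT 2) to 14.5 (promoter KO 1) and 22.7 FPKM (promoter KO 2). *Thbd*, a defining gene of parietal endoderm, stayed below 1 FPKM in every sample. The sums of the 14 were 369, 386, 490 and 566 FPKM in WT 1, WT 2, promoter KO 1 and promoter KO 2.

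Set side by side, *Dab2* rose, as did 4 visceral endoderm and 5 parietal endoderm genes that, like it, reached 1 FPKM in both WT samples. The rises of *Sox7*, *Cubn* and *Ihh* are not counted here, since the filter fixed their direction, nor are those of *Ttr* and *Srgn*, which reached 1 FPKM in only 1 WT sample and passed the filter with the help of promoter KO samples. *Foxq1* and *Hnf4a* had higher values in promoter KO without a call, *Gata4* had no stable direction, and *Gata6* and *Pdgfra* had lower values, *Gata6* with a call. The difference between these groups of genes was not tested.

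**Figure D4:**
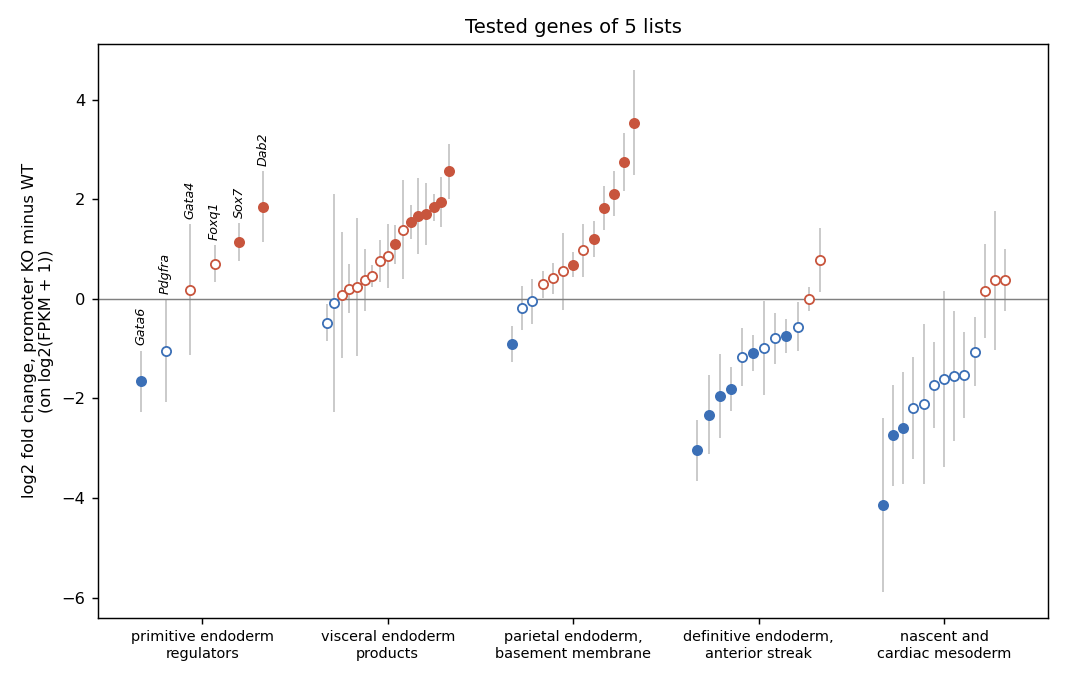
Log2 fold change (promoter KO minus WT, on log2(FPKM + 1)) with its 95% confidence interval from limma, for each tested gene of the regulators and of 4 lists of cell type genes, with filled points for an adjusted p under 0.05. The regulators spread from −1.65 (*Gata6*) to 1.86 (*Dab2*), on both sides of zero, while the 7 filled points of the visceral endoderm products, *Cubn* and *Ihh* among them, lie above zero and the filled points of the streak and mesoderm lists lie below it.

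Among 12 other endoderm transcription factors, 10 were tested, 1 rose and 1 fell (4 lower and 3 higher with an unadjusted p under 0.05). *Nr5a2*, a nuclear receptor of endoderm and of pluripotent cells, rose from WT values of 0.596 and 0.842 to promoter KO values of 3.52 and 2.42 FPKM (log2 fold change 1.20, adjusted p = 0.0431 in limma), but it too had to be higher in promoter KO to be tested. *Hhex*, a factor of anterior endoderm, fell (−0.74, adjusted p = 0.0493). *Sox17*, the SOXF relative of *Sox7*, had the opposite sign to it, with WT values of 13.3 and 17.2 FPKM and promoter KO values of 6.77 and 10.2 FPKM (−0.79, adjusted p = 0.0779). *Otx2* had the highest mean over the 4 samples, and its WT and promoter KO means were 66.6 and 66.8 FPKM.

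Of 15 relatives, ligands and cofactors of the 7, 8 were tested, 1 fell and 0 rose (3 lower and 1 higher at an unadjusted p under 0.05, with *Pdgfrb* among the 3 only able to be tested as a lower gene). The one that fell, and by the most, was *Pdgfb*, a PDGF ligand, from WT values of 3.25 and 4.83 to promoter KO values of 0.954 and 1.42 FPKM (log2 fold change −1.19, adjusted p = 0.0472 in limma). *Pdgfa*, the ligand that acts on PDGFRA in this lineage, overlapped between the genotypes, with 12.0, 15.4, 15.6 and 9.78 FPKM in WT 1, WT 2, promoter KO 1 and promoter KO 2, and *Pdgfc*, another ligand of PDGFRA, had the highest log2 fold change, 0.56 (adjusted p = 0.0946). The relatives *Gata1* and *Gata5* stayed below 1 FPKM in every sample, *Hnf4g* was listed at 0, and *Dab1*, with the highest mean of the list over the 4 samples, overlapped between the genotypes.

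Of a list of 18 genes, made of the FGF and ERK pathway that drives the primitive endoderm choice and the pluripotency factor *Nanog*, 17 were tested, 1 fell and 1 rose. At an unadjusted p under 0.05, 2 were lower, *Fgf8* and *Nanog*, and 4 were higher, against 15.6% and 15.0% of all tested genes. *Fgf8*, the ligand of the streak, fell from 204 ± 11.7 to 63.3 ± 20.3 FPKM (SD, n = 2 each), and its log2 fold change was −1.71 (adjusted p = 0.0310 in limma). The receptor *Fgfr4* rose from WT values of 0.738 and 0.830 to promoter KO values of 2.54 and 2.18 FPKM (log2 fold change 0.91, adjusted p = 0.0453), and it could be tested only because it was higher there. *Fgf4*, the ligand of the choice itself, had WT values of 5.73 and 6.82 and promoter KO values of 26.5 and 13.9 FPKM (log2 fold change 1.48, adjusted p = 0.0514). *Etv5*, an ERK target with the highest mean of the list over the 4 samples, though not in WT alone, had 0.38 as its log2 fold change (adjusted p = 0.0999).

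The genes whose profiles over the 4 samples came closest to each tested regulator were found as the smallest root mean square difference of centred log2(FPKM + 1). For *Dab2* they were *Cubn* (0.16), *Npl* (0.24) and *Afp* (0.27). For *Gata6* they were *Hmga2* (0.08), *Msx1* (0.11) and *Cdh2* (0.11), for *Pdgfra* they were *Igf2* (0.07), *Pmp22* (0.07) and *Cox4i2* (0.08), and for *Gata4* they were *Ahsg* (0.14), *Xlr3a* (0.20) and *S100a6* (0.25). For *Sox7* they were *1700030C10Rik* (0.03), *Sord* (0.04) and *Nostrin* (0.05), and for *Foxq1* they were *Slco3a1*, *Fem1a* and *Shtn1* (0.04 to 0.05). *Cubn*, *Nostrin* and *Shtn1* reached 1 FPKM only in promoter KO and had to be higher there to be tested. With 4 samples this is a description of shape only.

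In GENCODE M21 (GRCm38), *Gata4* spans 63198922 to 63271692 on chromosome 14 (minus strand) and *Sox7* spans 63943673 to 63950732 on the same chromosome (plus strand), with 672 kb between them. *Dab2* lies on chromosome 15 (6299788 to 6440712), *Hnf4a* on chromosome 2 (163506808 to 163572910), *Foxq1* on chromosome 13 (31556134 to 31560976), *Pdgfra* on chromosome 5 (75152292 to 75198215) and *Gata6* on chromosome 18 (11052064 to 11085635). The strand setting of the quantification is not given in the sources used here, so a gene and an antisense neighbour cannot be told apart. *A530084C06Rik* overlaps *Foxq1* over 3200 bases on the opposite strand, and *1010001N08Rik*, which overlaps *Gata6* over 504 bases, was listed at 0.259, 0.270, 0 and 1.03 FPKM in WT 1, WT 2, promoter KO 1 and promoter KO 2. *Dab2*, *Pdgfra* and *Hnf4a* also overlap genes of the opposite strand, of which *Hnf4aos* was listed at 0 in every sample.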

How the data were processed

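Per the study's methods, the authors checked reads with FastQC, mapped them to mm10 with TopHat and estimated expression of GENCODE M4 genes with Cufflinks, whereas the processing notes in the labels name HISAT2 2.1.0, Cufflinks and Cuffnorm. The deposited files, 1 per sample with 24347 gene rows, state no unit, and their values were taken as FPKM, which the authors had already scaled by transcript length and library size. The methods call the unit RPKM, so fragment numbers given here would be read numbers if that name is right. No counts were used.

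Depth was estimated from the value of 1 fragment in 5693 genes with a single annotated transcript, taking fragments of 200 bases, at 24800000, 22100000, 21600000 and 20200000 fragments in WT 1, WT 2, promoter KO 1 and promoter KO 2. Fragment numbers of single genes use the longest coding transcript and are approximate.

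limma 3.58.1 (R 4.3.3, eBayes with trend) was run across all genes on log2(FPKM + 1) without a block. Tables and figures used Python 3.11.15 and matplotlib 3.10.9.

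The members and all gene lists were chosen with earlier results of these data known. Named genes were the members, the target, each list gene with an adjusted p under 0.05, the gene of each list with the highest mean over the 4 samples, the extremes of the lists of relatives and visceral endoderm products, and the 3 closest profiles of each tested member. Others named were chosen after their values were seen. Alternatives were another pseudocount, other filters, no trend, median centring, quantile normalization, the replicate number as a block, each sample left out, and the log2 ratio of mean FPKM.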

Additional observations from a re-analysis of the deposited data

How the results depend on the processing

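Depth limits *Sox7* and *Hnf4a*, which stand on few WT fragments, and 2 samples per genotype limit every test. All genes called numbered 226 lower and 201 higher. In the same order they numbered 0 and 0 without a filter (1982 and 2077 at an unadjusted p under 0.05 in limma), 108 and 95 at a mean of 5 FPKM, and 27 and 55 without the trend. Median centring gave 126 lower and 157 higher (1624 and 2042 at an unadjusted p under 0.05), and leaving out each sample gave 0 to 248 lower and 0 to 238 higher (0 without WT 2, with 976 and 899 at an unadjusted p under 0.05, and 0 without promoter KO 1, with 1043 and 966). Of the regulators, 1 was called lower and 2 higher. This became 0 and 0 without a filter (1 and 4 at an unadjusted p under 0.05), 1 and 1 at a mean of 5 FPKM, where 4 regulators were tested, 0 and 1 (*Sox7*, whose direction the filter fixed) without the trend, and 0 to 1 lower and 0 to 1 higher with a sample left out. The visceral endoderm products called higher, 7, became 0 without a filter, 3 at a mean of 5 FPKM and 0 to 5 with a sample left out, and 0 were called lower in every fit. The log2 fold change of *Gata4* changed sign without WT 1 (−0.70) and without promoter KO 2 (−0.05), and was 1.06 without WT 2. The log2 ratio of mean FPKM of *Gata4* was −0.06. The same log2 ratio for *Sox7* was 2.79, which is the 6.91-fold difference of its means. Fewer genes tested at a mean of 5 FPKM and fewer samples are part of how those fits were made, and the cause of the other changes was not tested. Across all tested genes, how WT 1 differed from WT 2 and how promoter KO 1 differed from promoter KO 2 had a correlation of 0.0348. This value covers all tested genes together, and whether a smaller set of genes shares a replicate effect was not tested. With the replicate number as a block, 667 genes were lower and 535 higher, and 1 regulator was lower and 3 higher, with *Foxq1* added (adjusted p = 0.0421 in limma).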

Other observations

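*Gata4* and *Sox7* are neighbours on chromosome 14, and 4 genes lying wholly between them passed the filter. *Tdh*, which encodes threonine dehydrogenase, an enzyme of pluripotent mouse cells, went from WT values of 37.3 and 42.0 to promoter KO values of 157 and 87.9 FPKM (log2 fold change 1.55, adjusted p = 0.0440 in limma). *Mtmr9* (log2 fold change 0.48, adjusted p = 0.0978), *Pinx1* (0.25, 0.185) and *Xkr6* (0.13, 0.642) did not pass. The interval was looked at after the values of *Gata4* and *Sox7* were seen.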
